A study of Homo sapiens with 16 samples.

Results

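The comparison set 3 libraries of CAL51 cells treated with 10 µM CC-671 for 24 h against 3 libraries treated with 3 µM for 24 h, 6 of the 16 libraries of the series. They were chosen by their labelled dose and time. CAL51 is a cell line from a triple-negative breast cancer, at passage 10 in every library. The 2 vehicle libraries at 24 h (DMSO) serve here only as a level to read beside the doses, and the 3 libraries per dose at 6 h serve for the comparison in time. Replicates are labelled as biological, with no word on separate cultures, so each p-value measures a spread between libraries. For the gene tests that spread was estimated over all 16 libraries, those at 6 h and under vehicle included.

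CC-671 is described as an inhibitor of 2 kinases. TTK (MPS1) runs the spindle assembly checkpoint, which holds a dividing cell until its chromosomes are attached to the spindle. CLK2 belongs to the CLK family, which phosphorylates the serine- and arginine-rich (SR) proteins that choose splice sites. The question was what the higher dose added after a day of exposure.

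The labelled cells carried both epithelial and mesenchymal messages. KRT8, a simple-epithelium keratin, was at 665 ± 9.96 CPM at 3 µM and 650 ± 6.95 CPM at 10 µM (mean ± SD, n = 3 each), and EPCAM was at 282 ± 12.2 CPM at 3 µM and 269 ± 6.62 CPM at 10 µM, while the epithelial markers KRT7, CLDN7, ESRP1 and GRHL2 were at most at 0.488 CPM. The 10 epithelial markers summed to 1880 to 1920 CPM at 3 µM and 1860 to 1890 CPM at 10 µM. The 9 mesenchymal markers, led by FN1 (at most 1600 CPM) and VIM (at most 343 CPM), summed to 2010 to 2100 CPM and 1940 to 1990 CPM. The estrogen and progesterone receptor genes ESR1 and PGR were below the filter on low counts. ERBB2, the other gene of that marker list, had 12542 to 13808 counts, at most 121 CPM. Levels are in CPM, the usual count scaled to library size, here after trimmed-mean (TMM) scaling. Each of the 6 libraries held 107388298 to 119935688 read pairs at genes, and replicates at 24 h correlated at r = 0.9968 to 0.9971 across genes. Markers of blood cells were low: CD2 and MS4A1 (leukocyte) and HBB, HBG1 and ALAS2 (erythroid) had 0 counts in all 6 libraries. The summed level of 14 leukocyte markers was 9.69 to 10.6 CPM at 3 µM and 8.48 to 9.11 CPM at 10 µM, and that of 7 endothelial markers 10.4 to 11.3 CPM and 8.98 to 9.16 CPM. PTPRC, at most 6.57 CPM, and CDH5, at most 8.44 CPM, made up most of these sums. The 10 fibroblast markers summed to 271 to 287 CPM and 271 to 282 CPM, mostly COL3A1 (at most 224 CPM) and PDGFRB (at most 41.1 CPM), while DCN, FAP and THY1 had at most 3 counts. The leukocyte, endothelial and mesenchymal sums were lower at the higher dose without overlap, and their part in the results was not tested.

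Raising the dose from 3 to 10 µM changed many genes by a little. A gene is called changed below at a Benjamini-Hochberg adjusted p under 0.05 in edgeR's quasi-likelihood test. Of 22007 genes tested, 1397 (6.35%) were called, 549 higher (2.49%) and 848 lower (3.85%) at 10 µM. The median size among them was 0.158 on the log2 scale, 1172 differed by less than 1.2-fold, and 42 by at least 1.5-fold. The 12 genes past 2-fold, 4 higher (0.0182%) and 8 lower (0.0364%), were all close to silent, with no mean at either dose above 0.432 CPM. In 1394 of the called genes (99.8%) the doses did not overlap, against 31.3% of all genes tested. Overlap was read in the same 6 libraries that the test compared, so it gives no separate support to the calls.

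The count depended on which libraries were fitted. The fit reported here held all 16 libraries, and fitting the 6 libraries alone called 3753 genes, 1876 higher and 1877 lower, among them 1386 of the 1397. Leaving out a library lowered the count to 858, 736 and 751 without 3 µM replicate 1, 2 and 3, and to 791, 693 and 654 without 10 µM replicate 1, 2 and 3. Still, 465 genes were called in all 6 of these fits. Without a scaling factor the split was 732 higher and 725 lower, 50.2% higher in place of 39.3%. More abundant genes were called more often: 1.04% below a mean log2 CPM of 1, 6.92% from 1 to 4, 10.2% from 4 to 6 and 12.9% above.

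**Figure D1:**
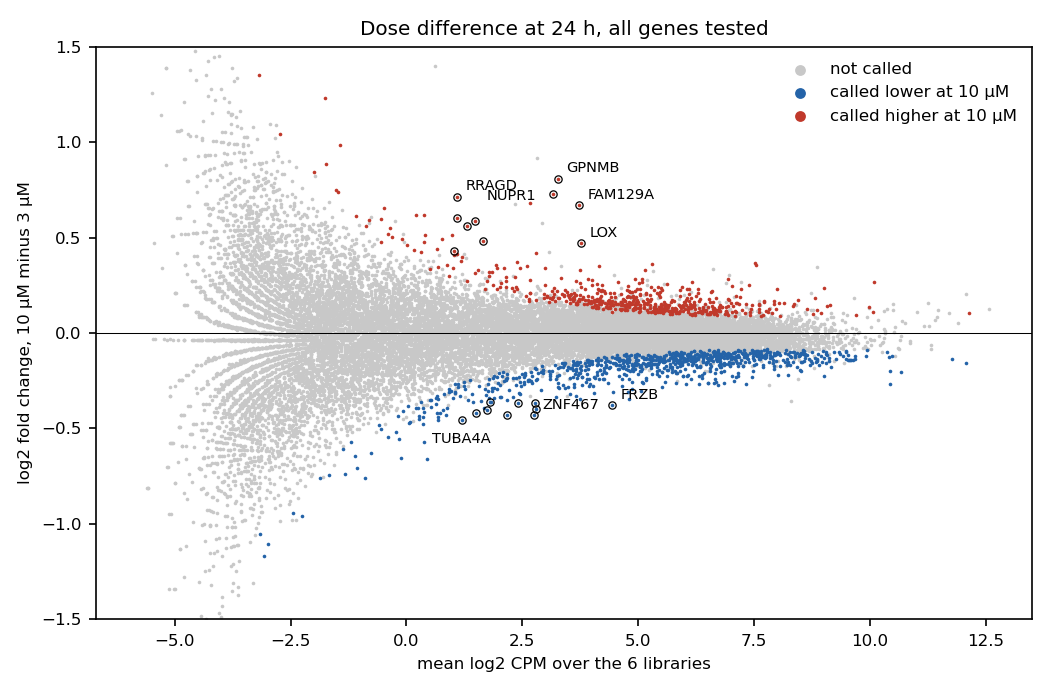
Log2 fold change of 10 µM over 3 µM at 24 h (y axis) against mean log2 CPM over the 6 libraries (x axis) for each gene tested, red where called higher, blue where called lower and grey otherwise. The circled genes are the 10 largest rises and 10 largest falls at a mean log2 CPM of at least 1, and most coloured points lie close to 0. The y axis ends at 1.5 either side of 0, which leaves out 30 genes.

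The largest rises included genes of lysosomal proteins and of the stress response. GPNMB, a glycoprotein of lysosomes and melanosomes, stood at 6.87, 7.57 and 7.38 CPM at 3 µM and 12.1, 12.8 and 13.4 CPM at 10 µM, against 3.36 and 2.66 CPM under vehicle. The doses were far apart, a 1.75-fold rise (log2 0.81 ± 0.062, edgeR adjusted p = 1.1e-08, ± SE here and below). NUPR1, a small stress-induced chromatin protein, stood at 7.20, 6.43 and 7.27 CPM at 3 µM and 10.7, 11.5 and 12.4 CPM at 10 µM, from 0.569 and 0.423 CPM under vehicle (log2 0.73 ± 0.066, edgeR adjusted p = 2.1e-07). RRAGD, a Rag GTPase that recruits mTORC1 to lysosomes, read 1.65, 1.78 and 1.53 CPM at 3 µM and 2.43, 2.70 and 3.02 CPM at 10 µM (log2 0.71 ± 0.109, edgeR adjusted p = 0.00015). Each of these 3 genes was higher in every library at 10 µM than in any at 3 µM, which the rule for naming required. LAMP3, a lysosome-associated membrane protein, read 1.76, 1.73 and 1.65 CPM at 3 µM and 2.61, 2.68 and 2.53 CPM at 10 µM (log2 0.60 ± 0.112, edgeR adjusted p = 0.0012). FAM129A (NIBAN1), another stress-induced gene, rose by 0.67 ± 0.072 (log2), with 10.5 ± 0.42 CPM at 3 µM and 16.8 ± 0.638 CPM at 10 µM. LOX, the enzyme that cross-links collagen, rose by 0.47 ± 0.050, and CCND2, a D-type cyclin, by 0.48 ± 0.097. DRAXIN, an axon guidance ligand, rose by 0.59 ± 0.092, IFITM10 by 0.56 ± 0.090 and the antisense transcript MCF2L-AS1 by 0.43 ± 0.088. All 10 kept their call in each of 15 alternative analyses. IFITM10, CCND2, DRAXIN, LAMP3, RRAGD and MCF2L-AS1 stayed under 5 CPM, and MCF2L-AS1 may share reads with the gene on the other strand.

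The largest falls included a tubulin, a regulator of cilia and a secreted Wnt antagonist. TUBA4A, an alpha-tubulin, stood at 2.65, 2.54 and 2.78 CPM at 3 µM and 1.84, 2.16 and 1.81 CPM at 10 µM, against 5.15 and 5.03 CPM under vehicle (log2 -0.46 ± 0.082, edgeR adjusted p = 0.00083). FOXJ1, the master regulator of motile cilia, stood at 5.53, 5.34 and 4.79 CPM at 3 µM and 4.02, 3.75 and 3.84 CPM at 10 µM (log2 -0.43 ± 0.062, edgeR adjusted p = 7.4e-05). FRZB, a secreted Wnt antagonist, read 24.4, 25.9 and 23.8 CPM at 3 µM and 19.4, 18.7 and 18.9 CPM at 10 µM, against 79.1 and 76.9 CPM under vehicle (log2 -0.38 ± 0.040, edgeR adjusted p = 2e-06). None of these 3 overlapped between doses, again as the rule for naming required. CSPG4, a membrane proteoglycan, fell (log2 -0.40 ± 0.076), as did TNFRSF1B, a tumor necrosis factor receptor (-0.36 ± 0.069). ZNF467, FXYD6, PRTFDC1, KIF12 and CNIH2 fell as well, at -0.43 ± 0.055, -0.42 ± 0.070, -0.40 ± 0.049, -0.37 ± 0.079 and -0.37 ± 0.058. These 10 calls also held in all 15 alternatives.

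The largest losses in CPM were in abundant messages of the cytoskeleton and of glycolysis. ACTB, cytoplasmic beta-actin, stood at 4582, 4539 and 4629 CPM at 3 µM and 4075, 4104 and 4174 CPM at 10 µM, against 7395 and 7379 CPM under vehicle (log2 -0.15 ± 0.025, edgeR adjusted p = 0.00027). GAPDH, a glycolytic enzyme, stood at 3642, 3711 and 3709 CPM at 3 µM and 3370, 3290 and 3397 CPM at 10 µM (log2 -0.14 ± 0.028, edgeR adjusted p = 0.0029). TUBA1B, an alpha-tubulin, read 1505, 1509 and 1522 CPM at 3 µM and 1264, 1246 and 1264 CPM at 10 µM, against 2022 and 2027 CPM under vehicle (log2 -0.27 ± 0.026, edgeR adjusted p = 6e-07). Each was lower in all 3 libraries at 10 µM, a condition of the rule that named them. TUBB fell (log2 -0.20 ± 0.029), as did the actin cross-linker FLNA (-0.20 ± 0.031). All 5 held in every alternative. The largest gains in CPM were FTH1, ferritin heavy chain (4331, 4305 and 4485 CPM at 3 µM and 4633, 4711 and 4767 CPM at 10 µM), SPP1, osteopontin (916, 1003 and 1049 CPM at 3 µM and 1236, 1179 and 1157 CPM at 10 µM), PSAP, APP and SCD. SCD, the stearoyl-CoA desaturase, was the 1 of these 5 that held in all alternatives. It stood at 483, 481 and 467 CPM at 3 µM and 541, 549 and 592 CPM at 10 µM (log2 0.23 ± 0.033, edgeR adjusted p = 4.7e-05), with 628 and 640 CPM under vehicle. FTH1 lost its call whichever of the 6 libraries was left out. It also lost it under another scaling (RLE) and with replicate number added to the fit as a block. SPP1 lost it in the fit of the 6 libraries alone and when any library other than 3 µM replicate 3 was left out. APP lost it when any other than 10 µM replicate 1 was left out, and PSAP without 3 µM replicate 2 or 10 µM replicate 3.

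Lysosomes digest what endocytosis and autophagy deliver, and their genes are known to be switched on together by the transcription factors TFEB and TFE3 through a TCACGTG core. Of 35 tested lysosome and autophagy genes, 16 rose and 0 fell, with a median of 0.088, against -0.003 over all genes. Among genes of similar level, 5.01% (mean log2 CPM 4 to 6) and 3.77% (above 6) were called higher. WIPI1, which binds phosphoinositides on forming autophagosomes, stood at 5.87, 6.29 and 5.76 CPM at 3 µM and 7.67, 8.18 and 8.12 CPM at 10 µM, near 6.61 and 5.93 CPM under vehicle (log2 0.42 ± 0.060, edgeR adjusted p = 6.5e-05). NPC2, which carries cholesterol out of lysosomes, stood at 71.8, 73.7 and 71.5 CPM at 3 µM and 81.0, 83.4 and 87.0 CPM at 10 µM, against 52.5 and 54.5 CPM under vehicle (log2 0.21 ± 0.039, edgeR adjusted p = 0.0012). LAMP2, a major lysosomal membrane protein, stood at 227, 233 and 232 CPM at 3 µM and 259, 255 and 263 CPM at 10 µM, against 198 and 194 CPM under vehicle (log2 0.17 ± 0.030, edgeR adjusted p = 0.0007). In these 3 genes the doses did not overlap, and WIPI1 was close to vehicle at 3 µM and above it at 10 µM. GABARAPL1, an autophagosome coat protein, rose by 0.21 ± 0.049, a call lost without 3 µM replicate 3 or 10 µM replicate 3. Other called members included LAMP1, CTSA, CTSD, HEXA, MCOLN1, ATP6V0D1, ATP6V1H, MAP1LC3B, ATG14 and OPTN.

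TFEB itself was at 2.43 ± 0.0782 CPM at 3 µM and 2.25 ± 0.0791 CPM at 10 µM, and TFE3 at 80.8 ± 0.449 CPM at 3 µM and 80.4 ± 0.51 CPM at 10 µM. Neither was called (log2 -0.11 ± 0.084, edgeR adjusted p = 0.53 and log2 -0.008 ± 0.026, edgeR adjusted p = 0.91, in that order). CTSB, a cathepsin of the same list, was not called either, at 278 ± 3.41 CPM at 3 µM and 280 ± 6.99 CPM at 10 µM. The count of 16 became 6 to 12 with 1 library left out, a loss of more than 1.5 times without 3 µM replicate 2 or 3 or 10 µM replicate 2 or 3. In the fit of the 6 libraries alone it was 21.

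Of 6 called lysosome genes with the TCACGTG core, the promoters of 4 are shown because the shared letters sit within the 250 bases before the start and recur there or read on both strands. The other two, CTSD and ATG14, each held the core at a single place, on the opposite strand. Both strands were searched, and capitals mark matches. In TCACGTGA the matches on the 2 strands overlap, each offset by 1 base.
LAMP1: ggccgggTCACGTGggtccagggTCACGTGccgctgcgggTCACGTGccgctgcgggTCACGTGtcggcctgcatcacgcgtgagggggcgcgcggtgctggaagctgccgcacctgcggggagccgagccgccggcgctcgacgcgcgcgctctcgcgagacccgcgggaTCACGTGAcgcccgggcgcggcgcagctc
CTSA: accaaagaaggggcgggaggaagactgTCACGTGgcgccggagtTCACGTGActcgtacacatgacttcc
MCOLN1: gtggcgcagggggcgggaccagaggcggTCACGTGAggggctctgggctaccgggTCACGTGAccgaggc
ATP6V0D1: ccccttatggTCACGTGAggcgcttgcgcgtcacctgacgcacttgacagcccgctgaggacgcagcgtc
The LAMP1 stretch is chr13:113297039-113297238 (+), that of CTSA chr20:45891265-45891334 (+), of MCOLN1 chr19:7522554-7522623 (+) and of ATP6V0D1 chr16:67481158-67481227 (-), from RefSeq on GRCh38.p14, each written 5′ to 3′ on the gene's strand. The counts were made on hg19 (GRCh37), so genes were joined by symbol. LAMP1, the partner of LAMP2 in the lysosomal membrane, stood at 469, 478 and 472 CPM at 3 µM and 496, 505 and 524 CPM at 10 µM (log2 0.10 ± 0.031, edgeR adjusted p = 0.039). CTSA, a lysosomal carboxypeptidase, stood at 240, 240 and 239 CPM at 3 µM and 258, 260 and 266 CPM at 10 µM (log2 0.12 ± 0.028, edgeR adjusted p = 0.0068). MCOLN1, the lysosomal calcium channel, stood at 17.7, 15.7 and 17.7 CPM at 3 µM and 18.4, 19.1 and 19.9 CPM at 10 µM (log2 0.17 ± 0.050, edgeR adjusted p = 0.044). ATP6V0D1, a subunit of the proton pump that acidifies lysosomes, rose by 0.13 ± 0.029. All 4 rises were small, and the calls of LAMP1 and MCOLN1 were lost whichever library was left out. LAMP1 also lost its call under RLE scaling, and MCOLN1 with the replicate block. CTSA lost its call without 10 µM replicate 3, and ATP6V0D1 without that library or 3 µM replicate 2.

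The core was present in 6 of the 11 called lysosome genes with a promoter in the table (54.5%) and in 7 of all 28 (25%). Over the promoters of all genes tested it was present in 614 of 12379 (4.96%). These shares are a description of letters, and binding was not measured.

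Small nucleolar RNA host genes carry snoRNAs in their introns, and many of their spliced messages are decay-prone. Of 17 tested, 9 rose and 0 fell, with a median of 0.154. Over all genes 2.49% rose, and 5.01% of those at a mean log2 CPM of 4 to 6. ZFAS1 stood at 140, 135 and 139 CPM at 3 µM and 158, 163 and 165 CPM at 10 µM, against 48.0 and 47.6 CPM under vehicle (log2 0.23 ± 0.036, edgeR adjusted p = 0.00023). SNHG1 stood at 246, 230 and 232 CPM at 3 µM and 275, 277 and 279 CPM at 10 µM, against 118 and 127 CPM under vehicle (log2 0.23 ± 0.037, edgeR adjusted p = 0.00034), and SNHG8 rose by 0.27 ± 0.050. For all 3 each library at 10 µM was above each at 3 µM, and both doses were above vehicle. EPB41L4A-AS1 rose by 0.22 ± 0.051, a call lost without 3 µM replicate 2 or 3 or 10 µM replicate 2. Of 15 nonsense-mediated decay factors, 0 were called by edgeR, DESeq2 or limma-voom (2 at an unadjusted p under 0.05), against 6.35% of all genes in edgeR. Their median was -0.004, and 3 were called in the fit of the 6 libraries alone.

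**Figure D2:**
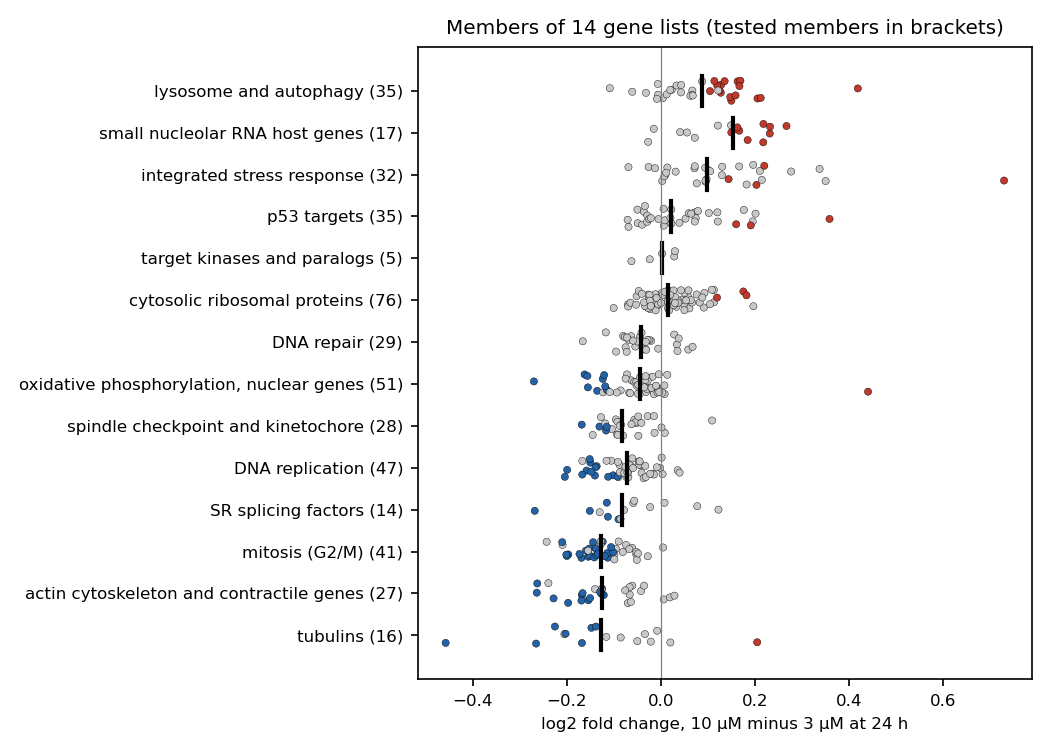
Log2 fold change of 10 µM over 3 µM at 24 h (x axis) for every tested member of 14 gene lists (rows), red where called higher, blue where called lower and grey otherwise, with a black bar at each list's median. Lysosome and snoRNA host genes lie mostly right of 0, and mitosis, actin and tubulin genes mostly left, with medians of 0.088, 0.154, -0.128, -0.126 and -0.127. Vertical placement within a row has no meaning.

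The integrated stress response cuts general translation through eIF2 and raises ATF4 and its targets. Of 32 genes in that list 4 rose, 0 fell and 29 were above 0, with a median of 0.098. Called higher were 2.49% of all genes, 5.01% at a mean log2 CPM of 4 to 6 and 3.77% at 6 or more. Besides NUPR1, SLC6A9, a glycine transporter, rose by 0.22 ± 0.052, CTH, an enzyme of cysteine synthesis, by 0.20 ± 0.049, and MTHFD2, a mitochondrial folate enzyme, by 0.14 ± 0.040. ATF4 stood at 525, 525 and 523 CPM at 3 µM and 549, 551 and 558 CPM at 10 µM (log2 0.076 ± 0.031, edgeR adjusted p = 0.16), and DDIT3, its target CHOP, at 34.0, 32.9 and 32.6 CPM at 3 µM and 39.8, 40.6 and 40.1 CPM at 10 µM (log2 0.28 ± 0.174, edgeR adjusted p = 0.45). Both had doses that did not overlap, as in 31.3% of all genes tested, 14.8% with 10 µM the higher. Neither was called in the fit of all libraries, while both were in the fit of the 6 libraries alone (edgeR adjusted p = 0.0012 for ATF4 and 9.5e-09 for DDIT3) and in that of the 24 h groups. The count of 4 was 1 or 2 whichever library was left out, and 23 in the fit of the 6 libraries alone. SLC6A9 lost its call without 3 µM replicate 2 or 3 or 10 µM replicate 2 or 3, CTH when any other than 3 µM replicate 2 was left out, and MTHFD2 whichever was left out. MTHFD2 also lost it with the replicate block. Among 22 genes of endoplasmic reticulum chaperones and the unfolded protein response, 0 were called by edgeR, DESeq2 or limma-voom (5 at an unadjusted p under 0.05). Their median was 0.067, and over all genes 6.35% were called in edgeR. In the fit of the 6 libraries alone 12 of the 22 were called.

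Few of the genes that p53 is known to switch on passed the test between the doses. Of 35 tested, 3 rose and 0 fell, with a median of 0.022, against 2.49% of all genes called higher. There were 12 rises and 0 falls in the fit of the 6 libraries alone, as in that of the 24 h groups. TP53INP1, a p53-induced autophagy and death regulator, stood at 120, 122 and 121 CPM at 3 µM and 135, 134 and 136 CPM at 10 µM, against 57.2 and 55.2 CPM under vehicle (log2 0.16 ± 0.032, edgeR adjusted p = 0.0029). GDF15, a secreted stress cytokine, stood at 170, 162 and 165 CPM at 3 µM and 204, 219 and 215 CPM at 10 µM, against 25.2 and 24.5 CPM under vehicle (log2 0.36 ± 0.075, edgeR adjusted p = 0.017). CDKN1A, the p53-induced CDK inhibitor p21, stood at 232, 222 and 220 CPM at 3 µM and 218, 217 and 218 CPM at 10 µM, against 57.3 and 58.1 CPM under vehicle (log2 -0.050 ± 0.035, edgeR adjusted p = 0.49). Its doses lay close together and it was not called, nor was MDM2, the ubiquitin ligase of p53 (394, 402 and 394 CPM at 3 µM and 415, 414 and 412 CPM at 10 µM, log2 0.059 ± 0.029, edgeR adjusted p = 0.26). MDM2 was called in the fit of the 6 libraries alone (edgeR adjusted p = 0.011) and in that of the 24 h groups, and CDKN1A in none of 15 alternatives. The GDF15 call was lost without 3 µM replicate 2 or 3 or 10 µM replicate 2 or 3. SPATA18 rose by 0.19 ± 0.048, lost without 3 µM replicate 1 or 3 or 10 µM replicate 1 or 2, and the list's count fell by more than 1.5 times without 3 µM replicate 3 or 10 µM replicate 2.

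Many genes of mitosis fell at the higher dose. Their G2/M peak is known to depend on the CHR element TTTGAA, bound by MuvB complexes, and on CCAAT boxes bound by NF-Y. Of 41 tested, 22 fell and 0 rose (53.7% called), with 40 below 0 and a median of -0.128. Among genes of similar level 5.19% (mean log2 CPM 4 to 6) and 9.12% (above 6) were called lower. UBE2C, which feeds the anaphase-promoting complex, stood at 100, 100 and 99.9 CPM at 3 µM and 85.7, 86.4 and 89.0 CPM at 10 µM, against 130 and 129 CPM under vehicle (log2 -0.20 ± 0.032, edgeR adjusted p = 0.00023). KIF4A, a chromosome-bound kinesin, stood at 78.9, 79.6 and 77.9 CPM at 3 µM and 69.9, 67.1 and 68.8 CPM at 10 µM, against 127 and 123 CPM under vehicle (log2 -0.20 ± 0.036, edgeR adjusted p = 0.00076). KIFC1, a minus-end kinesin, stood at 94.7, 91.1 and 91.7 CPM at 3 µM and 80.0, 79.6 and 80.3 CPM at 10 µM (log2 -0.21 ± 0.030, edgeR adjusted p = 6.1e-05). In each the 3 values at 10 µM were below all those at 3 µM, which were below vehicle. CDCA3, a trigger of mitotic entry, fell (-0.20 ± 0.037). In bulk RNA, fewer cells in mitosis and less message per mitotic cell cannot be told apart. The count of 22 was 9 to 15 with 1 library left out, a loss of more than 1.5 times without 3 µM replicate 2 or any 10 µM replicate. It was 34 in the fit of the 6 libraries alone. CCNB1, cyclin B1, stood at 253, 261 and 257 CPM at 3 µM and 243, 231 and 238 CPM at 10 µM (log2 -0.11 ± 0.033, edgeR adjusted p = 0.034), a call lost whichever library was left out.

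Promoter stretches of 4 called mitosis genes are shown because each holds both elements near the start. Capitals mark TTTGAA and CCAAT, the latter written ATTGG where it lies on the other strand, and in CDCA8 the last pair overlaps.
KIF4A: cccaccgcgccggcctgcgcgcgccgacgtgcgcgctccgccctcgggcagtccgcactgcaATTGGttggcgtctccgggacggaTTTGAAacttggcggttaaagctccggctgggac
PLK1: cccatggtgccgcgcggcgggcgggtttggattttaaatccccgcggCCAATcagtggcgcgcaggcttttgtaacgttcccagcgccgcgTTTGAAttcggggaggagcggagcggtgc
CDCA8: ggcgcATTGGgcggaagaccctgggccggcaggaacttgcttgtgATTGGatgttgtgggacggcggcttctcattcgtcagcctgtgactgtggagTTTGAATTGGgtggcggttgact
PRC1: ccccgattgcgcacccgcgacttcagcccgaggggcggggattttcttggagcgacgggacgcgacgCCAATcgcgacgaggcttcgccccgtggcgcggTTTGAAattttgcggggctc
They lie at chrX:70289984-70290103 (+), chr16:23678769-23678888 (+), chr1:37692396-37692515 (+) and chr15:90994536-90994655 (-) on GRCh38.p14 (RefSeq, each on the gene's strand). PLK1, the polo-like kinase of mitotic entry, stood at 148, 146 and 148 CPM at 3 µM and 135, 136 and 137 CPM at 10 µM (log2 -0.12 ± 0.030, edgeR adjusted p = 0.015). CDCA8, borealin of the chromosomal passenger complex, stood at 88.4, 91.0 and 88.9 CPM at 3 µM and 81.8, 79.6 and 81.3 CPM at 10 µM (log2 -0.14 ± 0.035, edgeR adjusted p = 0.012). PRC1, which bundles the central spindle, fell (-0.11 ± 0.025). The 3 falls were small and free of overlap. PLK1 lost its call when any library other than 3 µM replicate 2 was left out, CDCA8 without 3 µM replicate 2 or 10 µM replicate 2, and PRC1 without 10 µM replicate 1 or 2. CCAAT was present before the start of 18 of 18 called mitosis genes with a promoter (100%) and 28 of all 35 (80%), against 34.7% of promoters of genes tested. TTTGAA was present in 8 of the 18 (44.4%) and 19 of the 35 (54.3%), against 9.02%.

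Several DNA replication genes fell as well. Of 47 tested, 13 fell and 0 rose, with 43 below 0 and a median of -0.071, against 9.12% called lower among all genes at a mean log2 CPM of 6 or more, where most of the list lay. In the fit of the 6 libraries alone 26 fell. E2F8, an atypical E2F repressor of the S and G2 phases, stood at 55.6, 58.5 and 56.0 CPM at 3 µM and 50.5, 47.7 and 49.4 CPM at 10 µM (log2 -0.20 ± 0.031, edgeR adjusted p = 0.00015). UHRF1, which guides maintenance of DNA methylation, fell (-0.17 ± 0.031). E2F8 was below vehicle at both doses (69.9 and 67.4 CPM under vehicle). LIG1, the replicative DNA ligase, fell (-0.16 ± 0.042), a call lost without a scaling factor and without 3 µM replicate 1 or 3 or 10 µM replicate 1 or 3.

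Spindle checkpoint and kinetochore genes gave 4 falls among 28 (median -0.083), against 5.19% of genes at a mean log2 CPM of 4 to 6. SPC24, of the microtubule-binding NDC80 complex, stood at 30.4, 30.6 and 31.3 CPM at 3 µM and 27.2, 27.5 and 27.4 CPM at 10 µM, against 59.1 and 58.3 CPM under vehicle (log2 -0.17 ± 0.036, edgeR adjusted p = 0.0039). Whichever library was left out, the count was 1 or 2, and in the fit of the 6 libraries alone it was 12. Of 29 DNA repair genes 0 were called by edgeR, DESeq2 or limma-voom (5 at an unadjusted p under 0.05), against 6.35% of all genes in edgeR. Their median was -0.042, and 9 were called in the fit of the 6 libraries alone. At that share of all genes, few calls would fall in a list of this size.

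Many genes of the actin cytoskeleton fell. Actin and its contractile partners are known targets of serum response factor. Of 27 tested, 13 fell and 0 rose, with a median of -0.126, against 9.12% called lower among all genes at a mean log2 CPM of 6 or more, where most of them lay. TAGLN, the actin-binding transgelin, stood at 130, 124 and 128 CPM at 3 µM and 104, 105 and 108 CPM at 10 µM, against 315 and 308 CPM under vehicle (log2 -0.26 ± 0.035, edgeR adjusted p = 2.6e-05). ACTA2, smooth-muscle alpha-actin, stood at 64.2, 60.1 and 61.3 CPM at 3 µM and 49.6, 52.4 and 52.7 CPM at 10 µM, against 172 and 175 CPM under vehicle (log2 -0.26 ± 0.033, edgeR adjusted p = 1.5e-05). MYL9, a myosin regulatory light chain, stood at 154, 148 and 146 CPM at 3 µM and 123, 124 and 135 CPM at 10 µM (log2 -0.23 ± 0.040, edgeR adjusted p = 0.0013). All 3 were lower at 10 µM in every library, and far under vehicle at both doses. The remaining falls were in ACTB, FLNA, TAGLN2, CNN2, TPM1, TPM2, MYL6, MYH10, VCL and TLN1. With 1 library left out 10 or 11 were called, and 20 in the fit of the 6 libraries alone.

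Tubulin messages are known to be adjusted to the amount of free tubulin. Of 16 tested, 7 fell, with a median of -0.127, and 6 or 7 did with 1 library left out. Called lower were 3.85% of all genes and 9.12% at a mean log2 CPM of 6 or more. Besides TUBA4A, TUBA1B and TUBB, TUBB4B stood at 562, 556 and 560 CPM at 3 µM and 474, 476 and 485 CPM at 10 µM, against 746 and 742 CPM under vehicle (log2 -0.23 ± 0.030, edgeR adjusted p = 3.4e-05). TUBB2A, TUBB6 and TUBG1 fell too. TUBE1, epsilon-tubulin of centrioles, rose instead, with 31.1, 31.2 and 30.3 CPM at 3 µM and 35.5, 35.6 and 35.7 CPM at 10 µM (log2 0.20 ± 0.038, edgeR adjusted p = 0.0012). Its doses did not overlap, and it stood at 19.5 and 19.5 CPM under vehicle. Tubulin genes are close copies of each other, so the split of reads between members is uncertain.

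**Figure D3:**
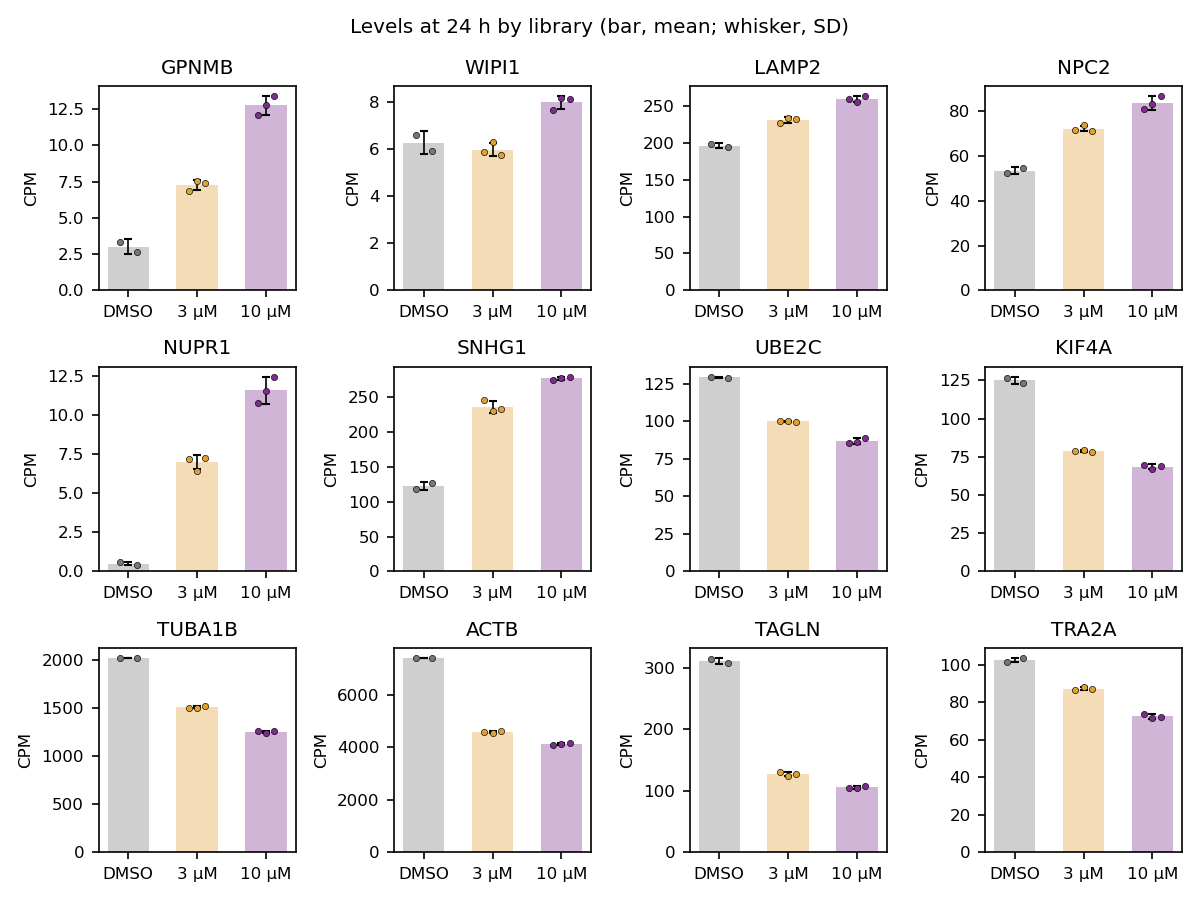
Level in CPM (y axis, from 0) of 12 genes at 24 h under vehicle (DMSO, 2 libraries), 3 µM and 10 µM CC-671 (3 libraries each), with points for libraries, bars for group means and whiskers for SD. GPNMB, WIPI1, LAMP2, NPC2, NUPR1 and SNHG1 are higher at 10 than at 3 µM in every library, and UBE2C, KIF4A, TUBA1B, ACTB, TAGLN and TRA2A are lower. WIPI1 at 3 µM lies near vehicle.

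The messages of the compound's target kinases did not pass the test between doses. TTK stood at 96.9, 98.5 and 97.3 CPM at 3 µM and 94.6, 90.4 and 95.3 CPM at 10 µM, against 103 and 101 CPM under vehicle (log2 -0.063 ± 0.039, edgeR adjusted p = 0.41). CLK2 stood at 81.2, 75.6 and 77.5 CPM at 3 µM and 79.5, 80.6 and 78.7 CPM at 10 µM, against 52.2 and 55.6 CPM under vehicle (log2 0.028 ± 0.052, edgeR adjusted p = 0.84). CLK1, CLK3 and CLK4 differed by -0.024 ± 0.036, 0.030 ± 0.028 and 0.002 ± 0.039. The 3 TTK values at 10 µM were the lower ones, as in 16.5% of all genes tested, and those of CLK2 overlapped. Of the 5 kinases 0 were called by DESeq2, limma-voom or edgeR over all libraries, against 6.35% of all genes in edgeR. An unadjusted p under 0.05 was seen in 0 of the 5. The fit of the 24 h groups alone called 1 of them, TTK, lower (edgeR adjusted p = 0.034).

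Of 14 SR splicing factors, the family that CLK kinases phosphorylate, 5 fell and 0 rose, with a median of -0.082, against 9.12% called lower among genes at a mean log2 CPM of 6 or more. TRA2A, which binds purine-rich splicing enhancers, stood at 86.7, 88.2 and 86.8 CPM at 3 µM and 73.6, 71.3 and 72.3 CPM at 10 µM, against 102 and 103 CPM under vehicle (log2 -0.27 ± 0.029, edgeR adjusted p = 2.8e-06). TRA2B, its close relative, stood at 297, 309 and 305 CPM at 3 µM and 272, 274 and 273 CPM at 10 µM (log2 -0.15 ± 0.029, edgeR adjusted p = 0.0018). Both were lower in every library at 10 µM, and both held in all alternatives. SRSF3 fell (-0.12 ± 0.031), a call lost when any library other than 3 µM replicate 1 was left out. SRSF9 also fell (-0.11 ± 0.027), a call lost without 3 µM replicate 2 or 10 µM replicate 1. The count of 5 fell to as few as 2, by more than 1.5 times when any library other than 3 µM replicate 1 was left out. Fitting the 6 libraries alone gave 10 falls and 2 rises.

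Of 24 hnRNP and related splicing regulators 5 fell and 0 rose, with 17 below 0 and a median of -0.044. Called lower were 3.85% of all genes and 9.12% at a mean log2 CPM of 6 or more. The falls were led by HNRNPD, which binds AU-rich elements (377, 390 and 388 CPM at 3 µM and 348, 343 and 348 CPM at 10 µM, log2 -0.15 ± 0.031, edgeR adjusted p = 0.0026). The count of 5 was 3 to 5 with 1 library left out, and fell by more than 1.5 times without 3 µM replicate 2 or 3 or 10 µM replicate 2 or 3. In the fit of the 6 libraries alone it was 9, with 2 rises. In the core spliceosome 2 of 30 fell and 1 rose, a share of falls under the 9.12% of genes at a mean log2 CPM of 6 or more. The fit of the 6 libraries alone gave 9 falls and that of the 24 h groups 12, and without 3 µM replicate 3 or 10 µM replicate 1 there was 1. SNRNP200, the helicase that unwinds U4 from U6, stood at 489, 485 and 480 CPM at 3 µM and 436, 435 and 436 CPM at 10 µM (log2 -0.15 ± 0.032, edgeR adjusted p = 0.0039). PRPF3, of the U4/U6 particle, rose by 0.10 ± 0.027, lost when any library other than 3 µM replicate 3 was left out. The share of read pairs falling outside annotated exons was 5.93 ± 0.203% at 10 µM and 5.8 ± 0.171% at 3 µM (mean ± SD, n = 3 each), against 4.43 ± 0.238% under vehicle (n = 2). The dose difference of 0.128 percentage points was not distinguishable from the spread (two-sided exact permutation p = 0.4, where 20 arrangements allow no less than 0.1).

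Several genes of energy metabolism fell. Of 51 nuclear genes of oxidative phosphorylation 9 fell and 1 rose, with 46 below 0 and a median of -0.045. At a mean log2 CPM of 6 or more, where most of them lay, 9.12% of all genes fell, and 17 of the 51 did in the fit of the 6 libraries alone. UQCRC2, a core subunit of complex III, stood at 115, 117 and 116 CPM at 3 µM and 98.0, 95.4 and 94.7 CPM at 10 µM, against 238 and 232 CPM under vehicle (log2 -0.27 ± 0.029, edgeR adjusted p = 2e-06). ATP5G1, a subunit of the ATP synthase ring, fell (-0.16 ± 0.034). UQCRC2 had no overlap between doses and held in all alternatives, as ATP5G1 did. NDUFV2, of complex I, rose by 0.44 ± 0.106 at a low level (1.35 ± 0.0732 CPM at 3 µM and 1.83 ± 0.0991 CPM at 10 µM), lost without 3 µM replicate 1 or 3 or 10 µM replicate 2. NDUFB8 fell (-0.16 ± 0.036), lost without 3 µM replicate 2 or 10 µM replicate 1. The 13 mRNAs of the mitochondrial genome were all above 0 (median 0.123). By DESeq2, limma-voom or edgeR over all libraries 0 were called, against 6.35% of all genes in edgeR, with 0 at an unadjusted p under 0.05. In edgeR's fit of the 6 libraries alone 2 were called higher, and 0 in that of the 24 h groups.

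Of 34 glycolysis and hypoxia genes 7 fell and 2, VEGFA and KDM3A, rose. At a mean log2 CPM of 6 or more 9.12% of genes fell and 3.77% rose. TPI1, triosephosphate isomerase, stood at 601, 608 and 609 CPM at 3 µM and 542, 535 and 532 CPM at 10 µM, against 833 and 825 CPM under vehicle (log2 -0.18 ± 0.025, edgeR adjusted p = 8.3e-05). PFKL, the liver-type phosphofructokinase, fell (-0.16 ± 0.027). VEGFA, the hypoxia-induced angiogenic factor, stood at 162, 148 and 153 CPM at 3 µM and 181, 191 and 179 CPM at 10 µM, against 70.5 and 73.9 CPM under vehicle (log2 0.25 ± 0.060, edgeR adjusted p = 0.026). The 2 glycolytic enzymes moved opposite to VEGFA. VEGFA lost its call when any library other than 3 µM replicate 1 was left out, and KDM3A, a histone demethylase, whichever was left out, so the 2 rises became 0 or 1. KDM3A also lost it under RLE scaling. Fitting the 6 libraries alone gave 6 rises and 11 falls. Of the 24 cholesterol genes, 1 rose and 2 fell, against 2.49% and 3.85% of all genes. The 2 falls became 1 whichever of the 6 libraries was left out, without a scaling factor and with a replicate block, and the fit of the 6 libraries alone gave 7 rises and 5 falls. SC5D, a late enzyme of cholesterol synthesis, was the one that rose (0.15 ± 0.032).

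Of 23 growth factor receptor kinases 5 fell and 0 rose, against 3.85% of all genes called lower. PDGFRB, a platelet-derived growth factor receptor, stood at 41.0, 36.5 and 35.4 CPM at 3 µM and 31.6, 30.9 and 31.7 CPM at 10 µM, against 71.1 and 72.0 CPM under vehicle (log2 -0.26 ± 0.046, edgeR adjusted p = 0.0011). FGFR4 stood at 28.3, 27.0 and 26.8 CPM at 3 µM and 22.7, 23.8 and 23.0 CPM at 10 µM, against 49.6 and 50.0 CPM under vehicle (log2 -0.24 ± 0.034, edgeR adjusted p = 4.6e-05). The doses of both genes were separate and below vehicle. FGFR3 fell (-0.18 ± 0.044), lost without 3 µM replicate 1 or 10 µM replicate 3 and in the fit of all 24 h groups. EPHB2 fell (-0.29 ± 0.085), lost when any library other than 10 µM replicate 1 was left out and with the replicate block. The list's count was 2 to 4 with 1 library left out, lower by more than 1.5 times without 3 µM replicate 1 or 2 or 10 µM replicate 3. DUSP6, the phosphatase that limits ERK, rose (444, 448 and 445 CPM at 3 µM and 487, 483 and 484 CPM at 10 µM, log2 0.12 ± 0.026, edgeR adjusted p = 0.0039), as did SPRY4, another brake on receptor signals, by 0.17 ± 0.035. Of 23 ERK feedback genes 3 rose and 1 fell, against 2.49% and 3.85% of all genes, and 7 rose in the fit of the 6 libraries alone.

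The few antiviral and antigen-presentation genes called moved both ways. Of 34 interferon-stimulated genes 2 rose and 3 fell, against 2.49% and 3.85% of all genes. IFITM3, which blocks viral entry, stood at 135, 142 and 143 CPM at 3 µM and 121, 117 and 122 CPM at 10 µM, against 201 and 198 CPM under vehicle (log2 -0.22 ± 0.032, edgeR adjusted p = 6.4e-05), and IFITM2 fell (-0.24 ± 0.031). Of 16 antigen-presentation genes 2 rose and 1 fell, beside the same shares of all genes. HLA-E, a class I molecule read by natural killer cells, stood at 126, 126 and 126 CPM at 3 µM and 137, 138 and 141 CPM at 10 µM, against 64.8 and 64.4 CPM under vehicle (log2 0.14 ± 0.029, edgeR adjusted p = 0.0034). Thus IFITM3 was below and HLA-E above vehicle at both doses, each further so at 10 µM.

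Of 76 cytosolic ribosomal protein genes 3 rose (median 0.015), a share near the 3.77% of genes called higher at a mean log2 CPM of 6 or more. Without 3 µM replicate 2 or 10 µM replicate 2 the count was 1, and the fit of the 6 libraries alone gave 18 rises and 4 falls. RPL37 was the 1 of them that held in all alternatives (430, 417 and 425 CPM at 3 µM and 468, 486 and 488 CPM at 10 µM, log2 0.18 ± 0.033, edgeR adjusted p = 0.0011). Such genes have many processed copies, so their counts are uncertain. Of 20 tRNA synthetases 3 rose and 3 fell, against 2.49% and 3.85% of all genes (3.77% and 9.12% at a mean log2 CPM of 6 or more). Among them were SARS at 0.16 ± 0.034 and VARS at -0.17 ± 0.029, both held in all alternatives. The 3 rises became 1 whichever library was left out and 9 in the fit of the 6 libraries alone, with 5 falls. Translation factors were divided in the same way, with EIF4A2 at 0.17 ± 0.029, EIF4B at 0.15 ± 0.029 and EIF5A at -0.15 ± 0.026. Of 35 such factors 3 rose and 2 fell, beside the same shares of all genes. In the fit of the 6 libraries alone 8 rose and 6 fell. Zinc finger genes named ZNF gave 39 rises and 7 falls among 496 tested (median 0.049), again beside 2.49% and 3.85% of all genes. With any 1 library left out there were 10 to 16 rises, and 116 in the fit of the 6 libraries. Loci with clone names gave 24 rises and 28 falls among 4604. That is 1.1% called, against 6.35% of all genes and 1.04% of those below a mean log2 CPM of 1.

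The same dose step at 6 h, measured in other libraries, gave more calls: 5480 genes, 2649 higher and 2831 lower, 173 of the higher and 27 of the lower by at least 2-fold. Across 22007 genes the dose differences at 24 h and 6 h correlated at r = 0.12, a description over genes that share libraries. By the test of the difference itself, the dose step differed between times in 2589 genes (11.8%), 1523 higher at 24 h than at 6 h (6.92%) and 1066 lower (4.84%). Without a scaling factor 69.8% of these calls were higher in place of 58.8%. Of the 1397 genes called at 24 h, 473 were in this set, and in 449 of these the difference had the direction of the 24 h call. The difference holds the same 24 h values that picked the 1397, so this overlap is partly built in. Of the 1397, 411 were called at 6 h in the same direction, and 39 were higher at 24 h but lower at 6 h, with 43 the reverse. Over all 22007 genes, 5480 were called at 6 h in either direction.

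Genes were named by this difference only if also called at 24 h, and the 24 h values enter the difference too. The 2116 genes with a called difference but no call at 24 h were not eligible. Among those named, GDPD1, a lysophospholipase D, came first. At 24 h it stood at 5.20, 6.06 and 6.12 CPM at 3 µM and 7.25, 6.97 and 6.88 CPM at 10 µM, a log2 dose difference of 0.28 ± 0.068, and at 6 h that difference was -0.49 (difference 0.77 ± 0.109, edgeR adjusted p = 4.8e-05). Its 24 h call was lost without 3 µM replicate 1 or 10 µM replicate 1. The log2 dose difference of GPNMB was 0.81 ± 0.062 at 24 h and 0.14 at 6 h (difference 0.67 ± 0.096, edgeR adjusted p = 5.3e-05), and PRKAB2, a regulatory subunit of AMP-activated kinase, at 0.15 ± 0.034 and -0.30 (difference 0.45 ± 0.048, edgeR adjusted p = 3.2e-06). In the other direction, CRB2, a cell polarity protein, was at -0.35 ± 0.051 and 0.15 (difference -0.50 ± 0.067, edgeR adjusted p = 4.1e-05), and MAP1A, a microtubule-associated protein, at -0.31 ± 0.043 and 0.18 (difference -0.48 ± 0.060, edgeR adjusted p = 1.1e-05). TTK was at -0.063 ± 0.039 at 24 h and -0.29 at 6 h (difference 0.23 ± 0.055, edgeR adjusted p = 0.0072).

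By list, read against 6.92% of all genes higher and 4.84% lower at 24 h than at 6 h, actin genes had a median of -0.126 at 24 h and 0.038 at 6 h, and 14 of 27 differed between times, all lower at 24 h. p53 targets had medians of 0.022 and 0.175, with 11 of 35 lower at 24 h and 0 higher. CDKN1A was at -0.050 ± 0.035 and 0.23 (difference -0.28 ± 0.050, edgeR adjusted p = 0.00053), and MDM2 at 0.059 ± 0.029 and 0.25 (difference -0.19 ± 0.041, edgeR adjusted p = 0.0031). Mitosis genes had medians of -0.128 and -0.158, with 8 of 41 higher and 3 lower at 24 h than at 6 h. Lysosome genes had medians of 0.088 and 0.03, with 3 of 35 higher, a share near the 6.92% of all genes. snoRNA host genes had medians of 0.154 and 0.181, with 3 of 17 lower. The integrated stress response had medians of 0.098 and 0.238, with 3 of 32 higher and 4 lower.

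**Figure D4:**
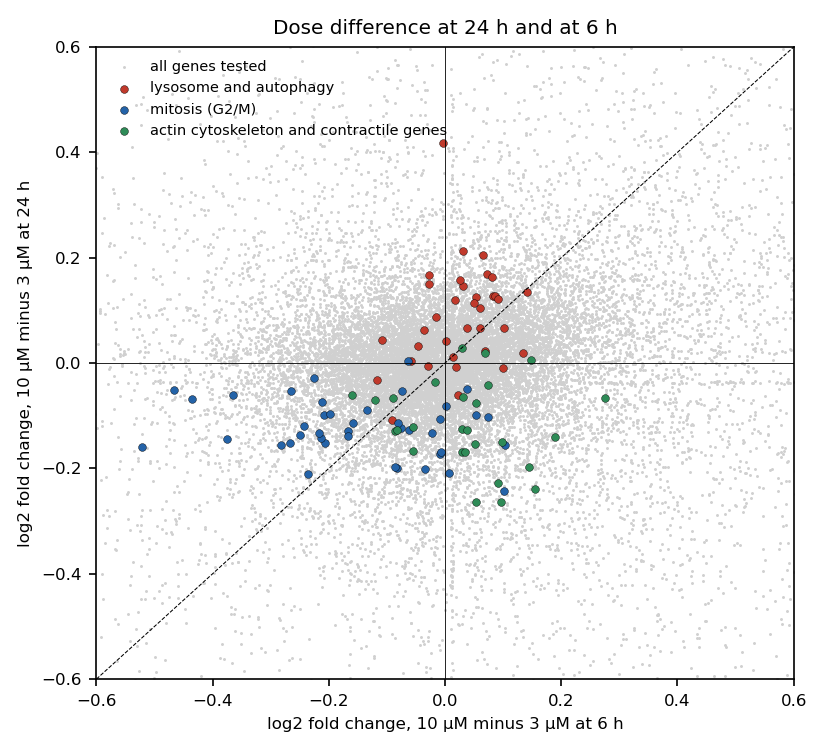
Log2 fold change of 10 µM over 3 µM at 24 h (y axis) against the same at 6 h (x axis) for all genes tested (grey) and for lysosome and autophagy (red), mitosis (blue) and actin (green) genes, with a dashed line where both are equal. Actin genes lie low on the y axis and near 0 or right of it on the x axis (medians -0.126 and 0.038), and mitosis genes are below 0 on both (medians -0.128 and -0.158). Axes end at 0.6 either side of 0, which leaves out 1792 genes.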

How the data were processed

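Poly-A RNA of CAL51 cells was sequenced in 16 strand-specific paired-end libraries, per the labels' protocols. The deposited files hold raw counts of read pairs per gene symbol, made by the authors with STAR and HTSeq on hg19 (GRCh37), per the submitters' processing notes, which also name edgeR. For the versions, the strand setting and the annotation: not given in the sources used here. The 5 closing counter rows (16.9% to 20.2% of pairs) stayed out of library sizes and tests.

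Of 55510 symbols, 22007 passed edgeR's expression filter (minimum count 10). Counts were scaled by TMM and tested with edgeR 4.0.16 (quasi-likelihood, R 4.3.3), fitting the 6 groups of dose and time over all 16 libraries, with Benjamini-Hochberg adjustment over all genes. On simulated counts for this comparison (21487 genes), 54% of genes planted at 1.15-fold and 86% at 1.25-fold were recovered. At 1.5-fold 98% were, and at 2-fold 100%, with 4.52% of calls false. The planted genes, 50 per size, left out those of low level. Each gene had the same simulated spread in all groups, whereas replicates of the treated groups differed more at 6 h than at 24 h. These rates therefore need not hold for the real counts.

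Of 1218 genes in 44 lists and 7 marker lists, 1213 matched a symbol (4 by another symbol) and 1174 were tested. The comparison, members and lists were chosen with earlier results of these data known. Genes are named by rule: the 10 largest rises and falls among called, non-overlapping genes at a mean log2 CPM of at least 1. The 5 largest gains and losses in CPM met the same conditions. The 5 largest differences in time each way were taken among genes meeting these conditions at 24 h, with the difference called too. Also named were followed genes, and up to 4 called members of lists with 3 or more plus those going against the majority. Other members named, and the promoters shown, were picked after their values were seen. Alternatives were DESeq2 1.42.0, limma-voom (limma 3.58.1), scaling, filters, fewer groups, a replicate block and leaving out libraries. A few called genes are not reported here, though counts over lists include them.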

Additional observations from a re-analysis of the deposited data

Results flagged for a closer look

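The step from 3 to 10 µM differed between 24 h and 6 h in 2589 genes by edgeR's interaction test. Among the genes named by size, level or interest, those below are given as the log2 dose difference at 24 h minus that at 6 h, with edgeR adjusted p-values from 3.2e-06 to 0.038.

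Higher at 24 h relative to 6 h were GDPD1 0.77, GPNMB 0.67, ZNF573 0.57, DRAXIN 0.52, PRKAB2 0.45, LOX 0.30, TTK 0.23 and SCD 0.19. GPNMB, DRAXIN, LOX and SCD had a dose difference above 0 at both times, PRKAB2, GDPD1 and ZNF573 went from below 0 at 6 h to above 0 at 24 h, and TTK was below 0 at both. Of the 24 h calls, that of GDPD1 was lost without 3 µM replicate 1 or 10 µM replicate 1, and that of ZNF573 without 3 µM replicate 2 or 3 or 10 µM replicate 1 or 3.

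Lower at 24 h relative to 6 h were DCAF4L1 -0.54, CLDN4 -0.52, CRB2 -0.50, MAP1A -0.48 and SEMA5A -0.48. CLDN4, a tight junction protein, CRB2, MAP1A and the guidance receptor SEMA5A were above 0 at 6 h and fell at 24 h, and DCAF4L1 was above 0 at both. The 24 h call of DCAF4L1 was lost in limma-voom and whichever of the 6 libraries was left out, and that of CLDN4 without 3 µM replicate 3 or 10 µM replicate 2 or 3. Smaller differences in the same direction were ZNF467 -0.43, FOXJ1 -0.40, FRZB -0.36, CSPG4 -0.35, CNIH2 -0.35, FLNA -0.34 and TUBA1B -0.29, and FXYD6 -0.29, CDKN1A -0.28, TUBB -0.24, PRTFDC1 -0.23, ACTB -0.21, MDM2 -0.19 and GAPDH -0.18. The abundant cytoskeletal genes FLNA, ACTB, TUBA1B and TUBB were all above 0 at 6 h and called lower at 24 h.

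Some of these differences in time missed the threshold in other settings. FXYD6 did in 9 of 20 alternatives: without a scaling factor, with nearly no filter, and without replicate 2 or 3 of 3 µM at either time, replicate 2 of 10 µM at 6 h or replicate 2 or 3 of 10 µM at 24 h. CSPG4 did in 6, without replicate 2 or 3 of 3 µM at 6 h, 1 or 2 of 3 µM at 24 h, or replicate 3 of 10 µM at either time. DRAXIN did in 4, without replicate 3 of 3 µM at either time, replicate 1 of 10 µM at 6 h or replicate 2 of 10 µM at 24 h. DCAF4L1 did in 4, in limma-voom, in the fit of only the groups compared, and without replicate 1 of either dose at 24 h. LOX and PRTFDC1 each did in 1, without 10 µM replicate 3 at 24 h.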

How the results depend on the processing

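The 1397 genes called changed became 3753 when the 6 libraries were fitted alone and 3870 when all 24 h groups were fitted, and the cause was not tested. Leaving out single libraries gave 654 to 858. The count was 1618 by DESeq2, 1424 by limma-voom, 1380 after RLE scaling and 1457 without scaling, 1565 with nearly no filter and 1631 with a stricter one. The 12 genes past 2-fold became 0 in DESeq2, which gave none of the 12 an adjusted p, 0 under the stricter filter, 20 in the fit of all 24 h groups and 3 to 7 with single libraries left out. The 2589 genes that differed between times ranged from 1791 to 2960 over left-out libraries. The difference in the share outside exons, 0.128 points, was 0.043 to 0.24 points over left-out libraries and 0.0979 as a share of all pairs.

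Same-numbered libraries at the 2 doses deviated with correlations of -0.115, -0.433 and 0.0531, and not every library correlated best with its own number, so the numbers were not read as pairs. With a replicate block the counts were 1270 changed, 6 past 2-fold and 2422 differing between times, and the share outside exons differed by 0.128 points. Of 146 named calls, 81 held in every alternative, 65 were lost in at least 1, 20 of them in a setting other than a left-out library, and 0 turned direction. The median over all genes was -0.00311 with TMM, -0.00559 with RLE and 0.00663 without a scaling factor. Genes below a mean log2 CPM of 1 were called in 1.04% of cases, and how much of this depth accounts for was not tested.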
